A study of Mus musculus with 15 samples.

Results

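Grem1, Bmp2, Bmp4, Bmpr1a, Bmpr1b, Bmpr2, Id1, Id2 and Id3 are 9 genes of bone morphogenetic protein (BMP) signalling, followed here in mouse granulosa cells, the somatic cells that surround the oocyte in the ovarian follicle. They were taken by gene symbol from the deposited counts, in which all 9 of 9 had a row among 24490 genes, and all 9 passed the filter on low counts that left 14907 genes for testing. The set was put together with earlier results of these libraries known, and Grem1 was selected on its measured change after Foxl2 siRNA. That change is given below as a description without a test, and the number of members that moved with Foxl2 siRNA is a description too. RNA was sequenced from primary granulosa cells of 8-week-old RjOrl:SWISS females, to ask which genes depend on FOXL2, a forkhead transcription factor of female gonadal identity, and on ESR2, the oestrogen receptor beta. Cells in every group, controls included, were transfected with 30 pmol of siRNA by a lipid reagent, as pools of 3 siRNAs for each target. The 15 libraries fell into 5 groups of 3: a scrambled (non-targeting) siRNA and the Foxl2 siRNA were each sampled at 30 h and 54 h, the Esr2 siRNA at 30 h. No group carried a genetic change. The times are those of the sample titles, since the extraction protocol names 30 h alone. The labels list the same catalogue numbers for the Foxl2 and the Esr2 siRNAs, so the make-up of the pools is not known. Whether replicate libraries stem from different cultures or animals is not labelled either, so the p-values reflect the spread among these libraries alone, part of which may be technical.

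BMP ligands are secreted dimers that bind a complex of type I receptors (BMPR1A, BMPR1B) and a type II receptor (BMPR2). The receptors phosphorylate SMAD1, SMAD5 and SMAD9, which enter the nucleus with SMAD4 and switch on target genes, the Id genes among the best known of them, while antagonists such as gremlin 1, the product of Grem1, trap the ligands outside the cell. In the ovary, BMPs from the oocyte, granulosa and theca cells act on follicle growth and on steroid production.

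The stretch just upstream of a gene is printed for 3 members: Grem1, the member with the largest change, Bmpr1b, the receptor with the largest change, and Bmp4, the member that moved the other way. Each is the 250 bases before a RefSeq transcription start in build GRCm38.p6, written 5′ to 3′ on the gene's own strand. All 3 genes lie on the minus strand. The windows are chr2:113758649-113758898 for Grem1, chr3:141982265-141982514 for Bmpr1b and chr14:46390670-46390919 for Bmp4. None overlaps an annotated exon, and the Bmpr1b window, the most distal of 3 that RefSeq gives for this gene, lies within an intron of the longer Bmpr1b gene of the GENCODE annotation. Capitals mark the GC-rich Smad element GGCGCC.
Grem1: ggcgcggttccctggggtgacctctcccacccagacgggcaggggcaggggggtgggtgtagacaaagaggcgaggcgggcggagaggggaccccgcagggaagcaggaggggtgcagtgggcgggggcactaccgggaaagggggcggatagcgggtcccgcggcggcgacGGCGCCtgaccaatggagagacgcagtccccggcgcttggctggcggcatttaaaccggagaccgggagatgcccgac
Bmpr1b: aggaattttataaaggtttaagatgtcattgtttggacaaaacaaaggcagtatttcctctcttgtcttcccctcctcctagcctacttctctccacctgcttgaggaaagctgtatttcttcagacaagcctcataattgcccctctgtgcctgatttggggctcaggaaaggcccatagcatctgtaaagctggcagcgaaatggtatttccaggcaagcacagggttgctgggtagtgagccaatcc
Bmp4: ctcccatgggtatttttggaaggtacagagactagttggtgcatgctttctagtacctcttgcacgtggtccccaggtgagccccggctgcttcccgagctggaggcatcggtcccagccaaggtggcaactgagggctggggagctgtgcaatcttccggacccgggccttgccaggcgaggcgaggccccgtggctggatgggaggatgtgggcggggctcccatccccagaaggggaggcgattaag
RefSeq windows were found for 7 of the 9 members, 9 windows in all, and none was matched for Id1 and Bmp2. GGCGCC stood 78 to 73 bases before the start in Grem1, 105 to 100 in Bmpr2, 198 to 193 in Bmpr1a and 231 to 226 in Id2, and in 9.59% of all 32851 promoter windows of this length. On either strand, the other motifs searched had no match in the members' windows: the forkhead motif TGTTTAC (in 3.17% of all windows), the FOXL2 response element core GTCAAGG (2.75%), the Smad palindrome GTCTAGAC (0.167%) and the full palindromic oestrogen response element (0.0517%). A match describes these letters alone, and no factor's binding was measured.

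The libraries held 45.0 to 59.6 M gene counts each. Levels are CPM (counts-per-million) after TMM scaling, and a gene is called higher or lower where edgeR's quasi-likelihood test gave a Benjamini-Hochberg adjusted p under 0.05 over all tested genes. Foxl2 itself was at 143 to 174 CPM with scrambled siRNA at 30 h and at 28.4 to 65.4 CPM with Foxl2 siRNA. At 54 h it was at 154 to 189 CPM against 25.2 to 57.5 CPM, so the knockdown was partial, and most Foxl2 remained in replicate 3 at 30 h and in replicate 2 at 54 h. Esr2 was at 12.9 to 14.5 CPM with its siRNA against 60.4 to 61.6 CPM with scrambled siRNA. With Foxl2 siRNA at 54 h it fell as well (log2 difference -1.31 ± 0.34, edgeR adjusted p = 0.00854). The 12 granulosa markers, of which all but Fshr and Amh were above 1 CPM on average over the libraries, summed to 5210 to 5890 CPM with scrambled and 6550 to 7310 CPM with Foxl2 siRNA at 30 h, to 5110 to 5210 and 5470 to 6100 CPM at 54 h, and to 4900 to 5210 CPM with Esr2 siRNA. They did not all go 1 way. At 54 h Cyp11a1 averaged 1960 CPM with scrambled and 3180 CPM with Foxl2 siRNA, and Amhr2 138 and 227 CPM. Amh and Fshr, averaging at or under 1.06 CPM, were higher too. Every other granulosa marker averaged lower, among them Hsd17b1 (127 and 16.0 CPM), Nr5a2 (192 and 122 CPM) and Inha (1940 and 1750 CPM). Markers of the ovarian surface epithelium (9 genes with a row) summed to 448 to 469 CPM with scrambled and 621 to 686 CPM with Foxl2 siRNA at 30 h, and to 409 to 475 and 997 to 1080 CPM at 54 h. None of the 9 was at 0, and among them Msln averaged 20.5 CPM with scrambled and 126 CPM with Foxl2 siRNA at 54 h. Leukocyte markers stayed at or under 6.9 CPM in sum, endothelial markers at or under 17.6 CPM and oocyte markers at or under 5.07 CPM. Theca and stroma markers (171 to 826 CPM) and smooth muscle markers (410 to 1250 CPM) overlapped between all groups.

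In control cells at 30 h the 3 Id genes, Bmpr1a and Bmpr2 were the abundant members. Compared per kilobase of exon with scrambled siRNA at 30 h, Id3 stood highest at 125 CPM per kb, followed by Id1 at 54.1, Bmpr1a at 39.7, Bmpr2 at 29.2 and Id2 at 20.5 CPM per kb. Grem1 at 7.41, Bmpr1b at 6.17 and Bmp2 at 3.09 CPM per kb were lower, and Bmp4, at 0.585 CPM per kb, was the scarcest of the 9. At 54 h Grem1, at 21.4 CPM per kb, stood above Id2 at 18.8 CPM per kb. A CPM value is a level over all cells of a library, so fewer cells of a type and less RNA per cell cannot be told apart.

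**Figure D1:**
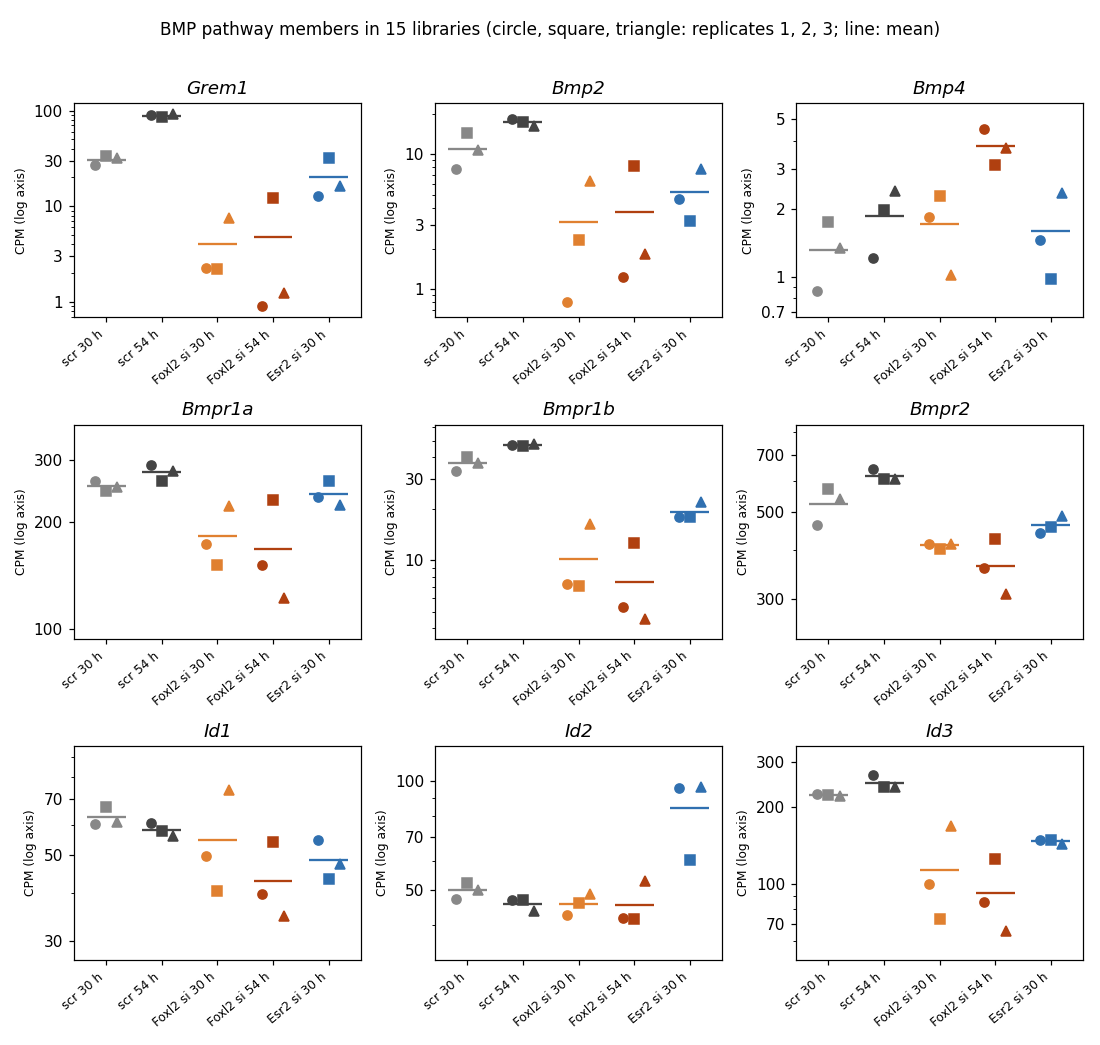
Level of each of the 9 genes in CPM on a log axis, with 1 point per library and a line at the mean of each group of 3. With Foxl2 siRNA, Grem1 lies at 0.902 to 12.3 CPM, below the scrambled libraries of both times, Bmp4 at 54 h lies at 3.12 to 4.51 CPM, above its controls, and Id2 is highest with Esr2 siRNA at 60.6 to 96.5 CPM.

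With Foxl2 siRNA, Grem1, Bmp2, Bmpr1a, Bmpr1b, Bmpr2 and Id3 were lower than with scrambled siRNA in every library at both times, and Bmp4 was higher at 54 h. Id1 overlapped its controls at 30 h and Id2 at both times. The edgeR test called 4 of the 9 members lower and 0 higher at 30 h, where 13.0% of all tested genes were called (6.65% lower, 6.34% higher), and 6 lower and 1 higher at 54 h, where 38.8% were called (20.3% lower, 18.5% higher); these counts include Grem1. The 3 libraries of each group did not overlap for 6 members at 30 h (33.0% of all tested genes) and for 8 members at 54 h (51.4%). The median log2 change of the 9 members was -0.47 at 30 h and -0.76 at 54 h, against -0.01 over all tested genes at both times. As the members were picked with these contrasts in view, nothing is read from the counts. The all-gene share at 30 h itself moved with the libraries, from 1936 calls to 3016 without Foxl2 siRNA replicate 3 and to 898, 1073 or 1171 without scrambled replicate 3, 1 or 2, and 1061 or 1085 without Foxl2 siRNA replicate 1 or 2. Marker sums of the surface epithelium and of granulosa cells were higher in the same libraries, as given above. In the granulosa list, all markers but Cyp11a1, Amhr2, Amh and Fshr nevertheless averaged lower at 54 h. The part of these markers in the members' changes was not tested.

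**Figure D2:**
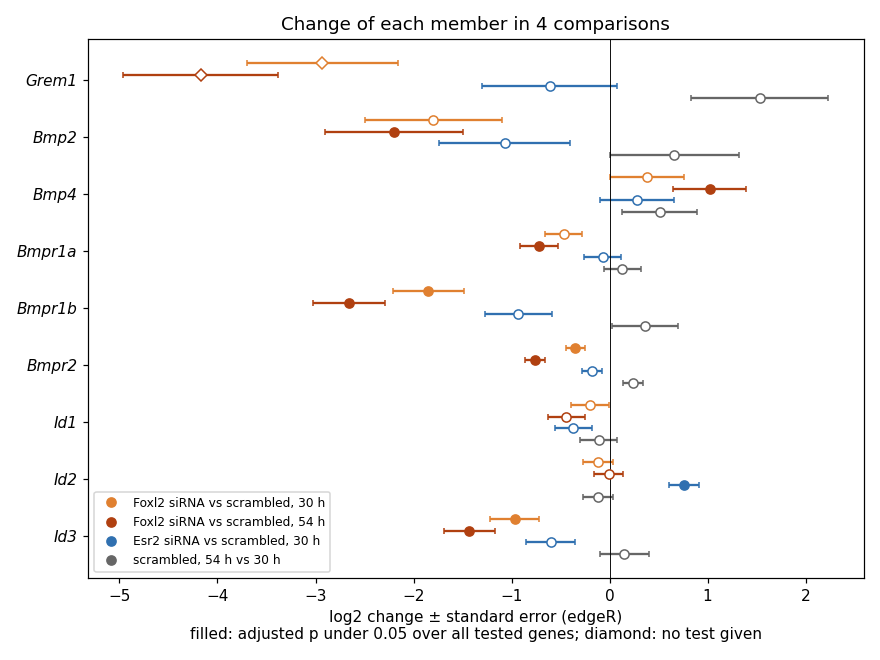
Log2 change of each of the 9 genes with its standard error in 4 comparisons: Foxl2 siRNA against scrambled at 30 h and 54 h, Esr2 siRNA against scrambled at 30 h, and scrambled at 54 h against 30 h. Filled circles passed the edgeR threshold and diamonds mark Grem1, given without a test; Bmpr1b lies at -1.85 and -2.66 with Foxl2 siRNA, and Id2 at 0.76 with Esr2 siRNA.

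Grem1 (chromosome 2, 113746164 to 113758646 on the minus strand in GRCm38; gremlin 1, a secreted antagonist that binds BMP2, BMP4 and BMP7) was at 26.9, 33.4 and 32.0 CPM in the 3 scrambled libraries at 30 h, in replicate order, and at 2.28, 2.19 and 7.58 CPM with Foxl2 siRNA. At 54 h it was at 89.3, 85.0 and 91.8 CPM with scrambled siRNA against 0.902, 12.3 and 1.25 CPM. The groups did not overlap at either time, and the highest Foxl2 siRNA library at each time was the one with the most Foxl2. The log2 difference was -2.93 ± 0.77 (SE) at 30 h and -4.17 ± 0.79 at 54 h, the largest in size among the 9 members at both times. Without the libraries with the most Foxl2, a setting chosen after seeing the data, the differences were -3.78 and -6.35. The libraries left out had the most Grem1 of their groups, so larger differences followed from the choice. The mean of the Foxl2 siRNA libraries was 4.02 ± 3.08 CPM (SD, n = 3) at 30 h and 4.81 ± 6.46 CPM at 54 h, and that of the scrambled libraries 30.8 ± 3.43 and 88.7 ± 3.45 CPM. The change at 54 h minus that at 30 h was -1.24 ± 1.03, and -3.42 without Foxl2 siRNA replicate 2 at 54 h, the library with the most Grem1 of its group; both are given without a test for the same reason as the changes themselves.

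The ligand Bmp2, which signals mainly through BMPR1A and BMPR1B with BMPR2, was at 7.80, 14.4 and 10.7 CPM in scrambled cells at 30 h and at 0.807, 2.33 and 6.30 CPM with Foxl2 siRNA. Its groups did not overlap, yet the log2 difference of -1.80 ± 0.70 did not pass (edgeR adjusted p = 0.109). Without Foxl2 siRNA replicate 3 it was -2.80 (edgeR adjusted p = 0.0234), but that library was the nearest to the controls, so a larger fall followed from leaving it out. At 54 h Bmp2 was at 18.4, 17.3 and 16.3 CPM against 1.23, 8.16 and 1.81 CPM. Bmp2 fell there (log2 difference -2.20 ± 0.70, edgeR adjusted p = 0.0237), with replicate 2, the library that kept most Foxl2, again the highest of its group. That call was lost without scrambled replicate 1 (adjusted p = 0.054), without Foxl2 siRNA replicate 1 (0.0811) or replicate 3 (0.0847), and in a fit of those 2 groups alone (0.0516), and without Foxl2 siRNA replicate 2 the difference was -3.50.

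Bmp4, a ligand of the same branch of the family, was scarce throughout. It was at 0.860, 1.74 and 1.34 CPM in scrambled cells and 1.84, 2.27 and 1.02 CPM with Foxl2 siRNA at 30 h, overlapping ranges with a log2 difference of 0.38 ± 0.38 (edgeR adjusted p = 0.561). At 54 h it was at 1.21, 1.97 and 2.40 CPM against 4.51, 3.12 and 3.70 CPM, and every Foxl2 siRNA library lay above every control. Bmp4 rose by 1.02 ± 0.37 (edgeR adjusted p = 0.0447), opposite in sign to Bmp2. These means rest on 309 scrambled and 582 Foxl2 siRNA counts in all, and the call was lost without scrambled replicate 1 (adjusted p = 0.153) or 2 (0.0866), and without Foxl2 siRNA replicate 1 (0.133) or 3 (0.0814).

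All 3 receptors among the members were called lower at 54 h, where 20.3% of all tested genes were called lower. Of 11 tested receptors and co-receptors, only these 3 were. Bmpr1b, a type I receptor known for fecundity alleles in sheep, was at 33.3, 40.1 and 36.9 CPM in scrambled cells at 30 h and at 7.30, 7.03 and 16.2 CPM with Foxl2 siRNA. At 54 h it was at 47.4, 46.8 and 47.7 CPM against 5.30, 12.6 and 4.53 CPM. The groups were far apart at both times, with the libraries richest in Foxl2 again highest. Bmpr1b fell by 1.85 ± 0.36 (log2) at 30 h (edgeR adjusted p = 0.00478), a 3.61-fold lower level, and by 2.66 ± 0.37 at 54 h (adjusted p = 0.000133), a 6.30-fold lower level; without Foxl2 siRNA replicate 2 the latter was -3.26. The change passed with every library left out in turn at both times.

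Bmpr1a, the widely expressed type I receptor, was at 261, 245 and 251 CPM in scrambled cells at 30 h and at 174, 151 and 222 CPM with Foxl2 siRNA. Its difference of -0.47 ± 0.19 did not pass at 30 h (edgeR adjusted p = 0.123), although the groups did not overlap. Without Foxl2 siRNA replicate 3, again the library nearest the controls, the edgeR adjusted p was 0.0435. At 54 h it was at 290, 261 and 279 CPM against 151, 231 and 122 CPM. Bmpr1a fell there by 0.72 ± 0.19 (edgeR adjusted p = 0.0089), and a fit of those 2 groups alone gave an adjusted p of 0.0581. Bmpr2, the type II receptor, was at 464, 574 and 540 CPM in scrambled cells and 416, 404 and 416 CPM with Foxl2 siRNA at 30 h, and at 644, 608 and 609 against 361, 427 and 310 CPM at 54 h. These groups did not overlap either. Bmpr2 fell by 0.35 ± 0.10 at 30 h (edgeR adjusted p = 0.041) and by 0.76 ± 0.10 at 54 h (adjusted p = 0.000125). The call at 30 h was lost without scrambled replicate 2 (adjusted p = 0.157) or 3 (0.141) and without Foxl2 siRNA replicate 1 (0.1), 2 (0.117) or 3 (0.0533), and with upper-quartile scaling (0.0591), no filter on low counts (0.0558) or those 2 groups alone (0.0562). The change at 54 h minus that at 30 h was -0.41 ± 0.15 for Bmpr2 (edgeR adjusted p = 0.361), and without Foxl2 siRNA replicate 2 at 54 h it passed for Bmpr2 (-0.54, adjusted p = 0.0272) and Bmpr1b (-1.42, 0.0484). For both genes that library was the nearest to the controls of its group, so a larger difference followed from leaving it out.

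The 3 Id genes, which code for helix-loop-helix proteins that bind E proteins and keep them off DNA, are standard targets of the BMP Smads. Of the 3, Id3 alone was called with Foxl2 siRNA against scrambled siRNA. Id3 was at 226, 223 and 221 CPM in scrambled cells and 99.9, 73.3 and 169 CPM with Foxl2 siRNA at 30 h, and at 267, 239 and 240 against 85.5, 125 and 65.8 CPM at 54 h. All 6 Foxl2 siRNA libraries lay below all scrambled libraries. Id3 fell by 0.97 ± 0.25 at 30 h (edgeR adjusted p = 0.0251) and by 1.43 ± 0.26 at 54 h (adjusted p = 0.000861). The call at 30 h passed without Foxl2 siRNA replicate 3 and was lost without any of the other 5 libraries: scrambled replicates 1 (adjusted p = 0.0723), 2 (0.0661) and 3 (0.074), and Foxl2 siRNA replicates 1 (0.0982) and 2 (0.0887). A fit of those 2 groups alone gave an adjusted p of 0.0733 for Id3.

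Id1 was at 60.2, 66.8 and 61.1 CPM in scrambled cells and 49.7, 40.4 and 73.9 CPM with Foxl2 siRNA at 30 h, ranges that overlapped (log2 difference -0.20 ± 0.19, edgeR adjusted p = 0.552). At 54 h it was at 60.8, 57.9 and 56.1 CPM against 39.6, 54.1 and 34.8 CPM, without overlap. The difference of -0.44 ± 0.19 did not pass (edgeR adjusted p = 0.0867), but it did without Foxl2 siRNA replicate 2 (-0.64, adjusted p = 0.0165). That library was the nearest to the controls, so a larger fall of Id1 followed from leaving it out. Over all genes 6752 were then called, against 5787. Id2 was at 47.2, 52.4 and 50.0 CPM in scrambled cells and 42.7, 46.1 and 48.7 CPM with Foxl2 siRNA at 30 h, and at 47.0, 46.8 and 43.7 against 41.9, 41.6 and 53.1 CPM at 54 h. Its ranges overlapped at both times, with differences of -0.12 ± 0.15 (edgeR adjusted p = 0.648) and -0.01 ± 0.15 (adjusted p = 0.967).

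Most members were highest where most Foxl2 remained. Replicate 3 at 30 h (65.4 CPM of Foxl2, against 33.8 and 28.4 CPM) had the highest level of its group for 7 of the 9 members, all but Bmp4, for which it was the lowest, and Bmpr2. Replicate 2 at 54 h (57.5 CPM of Foxl2, against 33.7 and 25.2 CPM) was the highest for 7 of the 9, all but Bmp4 and Id2, and the lowest for both of these. These are orders of 3 libraries each, given without a test. The matching share of all tested genes was not computed, and the members were picked with the Foxl2 siRNA contrasts in view. Nothing particular to these genes is therefore read from the orders.

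**Figure D3:**
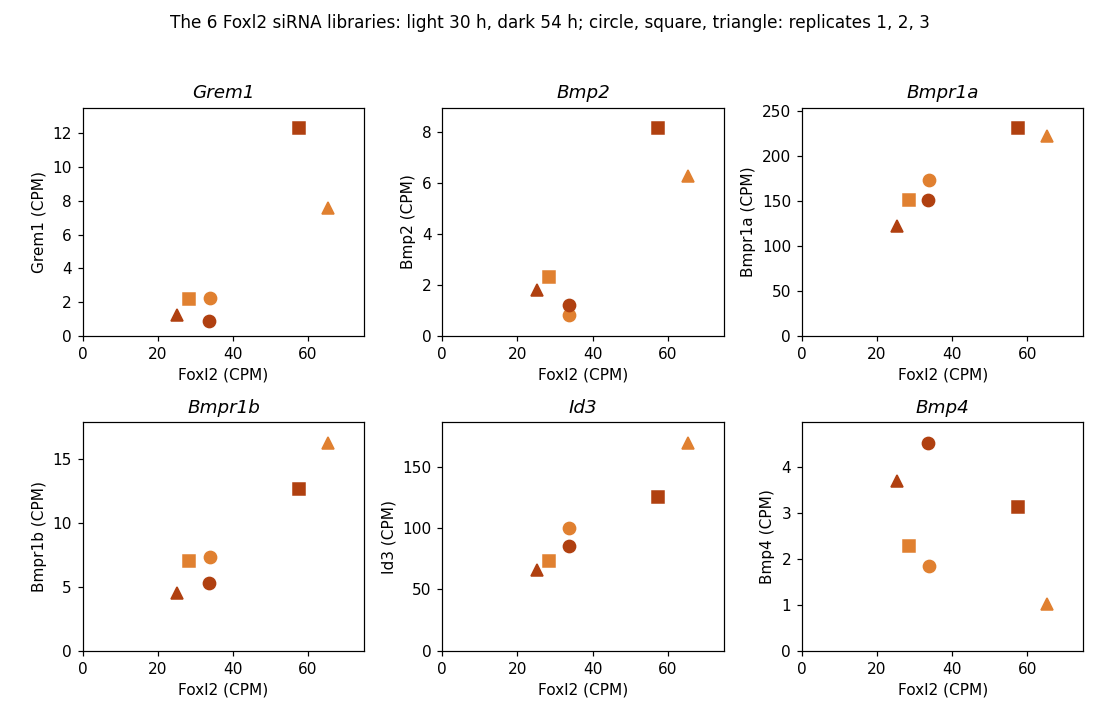
Level of 6 genes against that of Foxl2, both in CPM, in the 6 Foxl2 siRNA libraries. Grem1, Bmp2, Bmpr1b and Id3 are highest at each time in the library with the most Foxl2 (65.4 CPM at 30 h, 57.5 CPM at 54 h), as is Bmpr1a, while Bmp4 is lowest there.

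With Esr2 siRNA, Id2 was higher than with scrambled siRNA, and Bmpr1b and Id3 were lower in every library without passing the test. The same scrambled libraries at 30 h served as controls for it and for Foxl2 siRNA. The edgeR test called 1 member higher, Id2, and 0 lower, where 4.23% of all tested genes were called (1.13% higher, 3.11% lower; 631 genes, against 1030 without Esr2 siRNA replicate 2, 238 or 309 without its replicate 1 or 3, and 342, 306 or 255 without scrambled replicate 1, 2 or 3); the groups did not overlap for 5 members (29.5% of all tested genes), and the median log2 change was -0.37, against -0.01 over all tested genes. Id2 was at 96.1, 60.6 and 96.5 CPM with Esr2 siRNA against 47.2, 52.4 and 50.0 CPM with scrambled siRNA. It was higher in every Esr2 siRNA library, though replicate 2 lay close to the controls. Id2 rose by 0.76 ± 0.15, or 1.69-fold (edgeR adjusted p = 0.0112). It did not pass without scrambled replicate 1 (adjusted p = 0.0517) or 3 (0.0514), or without Esr2 siRNA replicate 1 (0.0636) or 3 (0.0537).

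Bmpr1b was at 18.0, 17.9 and 21.8 CPM, a difference of -0.93 ± 0.34 (edgeR adjusted p = 0.165), and Id3 at 149, 149 and 144 CPM, a difference of -0.60 ± 0.25 (adjusted p = 0.229). A fit of those 2 groups alone called both, with adjusted p of 0.00368 for Bmpr1b and 0.00106 for Id3. Grem1 was at 12.7, 31.6 and 16.3 CPM, so that 1 of the 3 libraries lay within the control range (-0.61 ± 0.69, edgeR adjusted p = 0.737). Bmp2 was at 4.70, 3.19 and 7.74 CPM and Id1 at 54.7, 43.5 and 47.6 CPM, all below their controls, with adjusted p of 0.466 and 0.357. Bmp4 (0.978 to 2.34 CPM), Bmpr1a (223 to 262 CPM) and Bmpr2 (442 to 490 CPM) overlapped their controls. Foxl2, at 112 to 128 CPM in these libraries, was below its control range of 143 to 174 CPM, a difference that did not pass (-0.41 ± 0.29, edgeR adjusted p = 0.539), and surface epithelium markers summed to 477 to 485 CPM; their part in the members' values was not tested.

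Set directly against each other at 30 h, the Foxl2 and Esr2 siRNA libraries differed in 2 members, both lower with Foxl2 siRNA (20.4% of all tested genes were called, 9.34% lower and 11.1% higher; 3042 genes, against 1767 or 1998 without Esr2 siRNA replicate 1 or 3). The groups did not overlap for 5 members (34.8% of all tested genes), and the members' median log2 difference was -0.40, against 0 over all tested genes. Id2 had a log2 difference of -0.88 ± 0.15 (edgeR adjusted p = 0.00131), which passed with every library left out in turn. For Grem1 the difference was -2.32 ± 0.76 (edgeR adjusted p = 0.0456), but this contrast uses the Foxl2 siRNA libraries on which Grem1 was chosen. The Grem1 call was lost without Esr2 siRNA replicate 1 (adjusted p = 0.0649), 2 (0.128) or 3 (0.0731) and without Foxl2 siRNA replicate 1 (0.141) or 2 (0.146), and without Foxl2 siRNA replicate 3 the difference was -3.17. Bmpr1b (-0.92 ± 0.35, edgeR adjusted p = 0.0824) and Id3 (-0.37 ± 0.25, 0.331) did not pass, though both did without Foxl2 siRNA replicate 3 (-1.42, 0.00927 and -0.77, 0.0198). That library had the most Bmpr1b and Id3 of its group, so larger differences followed from leaving it out. Over all genes 3647 were then called.

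Between 30 h and 54 h of scrambled culture, Grem1 had the largest difference of the 9, from 26.9 to 33.4 CPM up to 85.0 to 91.8 CPM, or 1.53 ± 0.70 on the log2 scale. It did not pass in the fit of all 5 groups (edgeR adjusted p = 1, unadjusted p = 0.0473), and passed in a fit of the 2 scrambled groups alone (adjusted p = 0.00314). Both p-values reuse scrambled libraries that were the controls of the change on which Grem1 was chosen, so neither is an independent test. The Foxl2 siRNA groups, where the SD of Grem1 was largest relative to its mean at 54 h (6.46 on 4.81 CPM), enter the spread of the first fit and not of the second. In the fit of all groups 0 of 9 members were called (0.00671% of all tested genes, 1 gene, against 3 genes with the replicate number as a block). An unadjusted edgeR p under 0.05 was found for 2 members and for 727 of all 14907 tested genes. With quality weights, limma's voom called 5 members and 2693 of all genes. Ranges did not overlap for 7 of the 9 (22.7% of all tested genes), all but Bmp4 and Id1, and the median log2 difference was 0.24, against 0 over all tested genes. Bmp2 lay at 16.3 to 18.4 CPM at 54 h against 7.80 to 14.4 CPM, and Bmpr1b at 46.8 to 47.7 against 33.3 to 40.1 CPM. For no member (0 of 9) did edgeR call the change with Foxl2 siRNA at 54 h as different from that at 30 h. Of all tested genes 0.00671% were called. For this difference 1 member and 1510 of all 14907 tested genes had an unadjusted edgeR p under 0.05. Voom called 1 member and 1056 of all genes. Without Foxl2 siRNA replicate 2 at 54 h, edgeR called 904 of all genes against 1, and the exception among members is given above.

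Around the 9 genes, 5 lists held 69 genes, members included, of which 57 passed the filter on low counts. They covered ligands, antagonists, receptors, Smads, and targets grouped with E proteins. The lists too were drawn up with earlier results known. With Foxl2 siRNA edgeR called 2 of the 57 higher and 13 lower at 30 h, and 10 higher and 18 lower at 54 h, with a median log2 change of -0.18 and -0.11, beside the shares of all tested genes given above. With Esr2 siRNA 1 was called higher and 1 lower (4.23% of all tested genes were called), and between the scrambled times 0 (0.00671%). The 12 genes that did not pass the filter, Bmp5, Bmp10, Bmp15, Gdf2, Gdf5, Gdf7, Chrdl2, Cer1, Sost, Sostdc1, Hjv (listed as Hfe2) and Dlx5, were at or under 0.231 CPM in every library.

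Of 10 tested ligands, 4 rose and 3 fell at 54 h, where 38.8% of all tested genes were called (18.5% higher, 20.3% lower). Bmp7 rose from 0.293 to 0.455 CPM in scrambled cells to 1.01 to 1.32 CPM (1.57 ± 0.31, edgeR adjusted p = 0.00167). Bmp8b rose from 0.879 to 1.52 CPM to 1.94 to 2.93 CPM (0.98 ± 0.26, adjusted p = 0.0102). Gdf6 was far more abundant, at 65.3 to 86.3 CPM in scrambled cells and 105 to 183 CPM with Foxl2 siRNA (0.91 ± 0.33, edgeR adjusted p = 0.0424). Its call was lost without scrambled replicates 1, 2 or 3 (0.0651, 0.128 and 0.0999) or Foxl2 siRNA replicates 1 or 3 (0.164 and 0.0772). Bmp6 fell from 28.9 to 42.4 CPM to 13.9 to 19.3 CPM (-1.18 ± 0.18, adjusted p = 0.000274), and was already lower at 30 h (-1.11 ± 0.18, 0.00162). Bmp3, an atypical member that opposes other BMPs, fell from 12.2 to 19.2 CPM to 4.93 to 6.93 CPM at 54 h (-1.41 ± 0.25, edgeR adjusted p = 0.00072). Bmp3 was also the 1 list gene that fell with Esr2 siRNA, to 3.15 to 4.05 CPM from 8.81 to 15.1 CPM (-1.75 ± 0.25, adjusted p = 0.0015). Among those not called, Bmp8a was at 1.87 to 2.81 CPM and the oocyte factor Gdf9 at 0.320 to 0.440 CPM with Foxl2 siRNA at 54 h, and Gdf10 stayed at or under 1.08 CPM throughout.

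Of 12 tested antagonists, Grem1 included, 5 were lower and 2 higher at 54 h, where 38.8% of all tested genes were called. Chrdl1, a chordin-like antagonist, fell from 4.74 to 6.85 CPM to 0.270 to 0.657 CPM at 54 h (-3.76 ± 0.37, adjusted p = 1.11e-05). Fst, which codes for follistatin and binds activins and some BMPs, fell from 82.6 to 105 CPM to 3.21 to 14.8 CPM (-3.43 ± 0.47, adjusted p = 0.000129; -4.06 without Foxl2 siRNA replicate 2). Twsg1 fell too, and Fstl1 (0.80 ± 0.12, adjusted p = 0.000205) and Dand5 rose. Dand5 (0.35 ± 0.12, edgeR adjusted p = 0.0313) lost its call when scrambled library 1 (0.0778) or 3 (0.107), or Foxl2 siRNA library 1 (0.146), was left out. Bmper, the most abundant of those not called, was at 358 to 396 CPM against 427 to 473 CPM; Nbl1 and Fstl3 were not called and overlapped their controls.

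**Figure D4:**
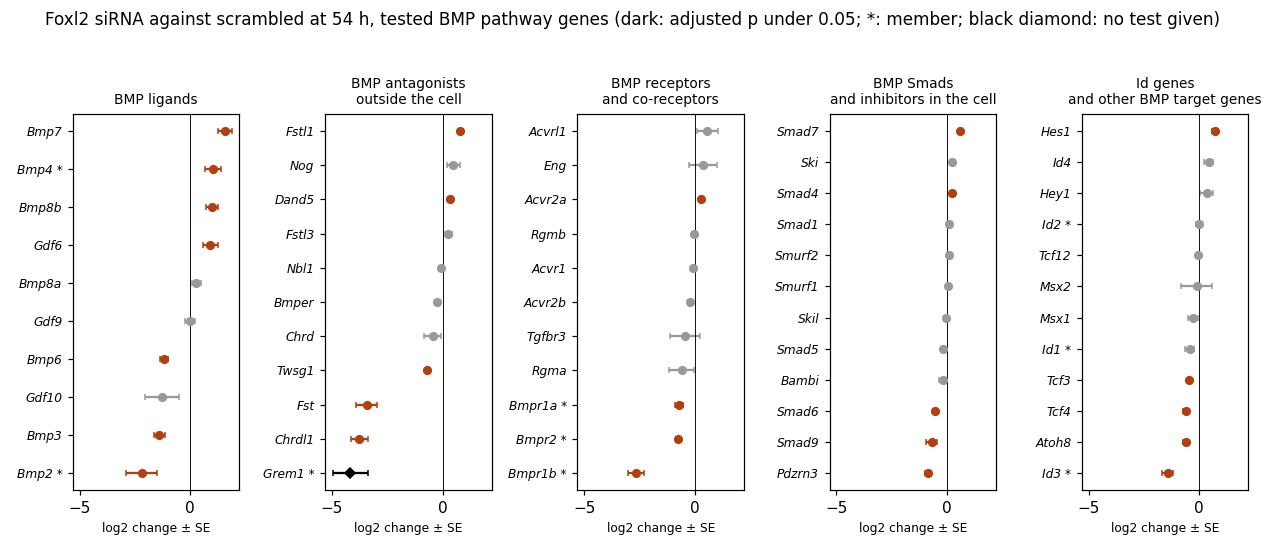
Log2 change with its standard error for tested genes of the 5 lists, Foxl2 siRNA against scrambled at 54 h, with called genes dark and members starred. Chrdl1 at -3.76 and Fst at -3.43 lie beside Grem1 at -4.17 at the low end, and Bmp7 at 1.57 is the highest of the called genes.

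Among 11 tested receptors and co-receptors, the 3 members Bmpr1a, Bmpr1b and Bmpr2 were those that fell at 54 h, where 20.3% of all tested genes fell. Acvr2a, a type II receptor shared with activins, rose by 0.26 ± 0.09 (edgeR adjusted p = 0.0392), a call lost without 5 of the 6 libraries, all but Foxl2 siRNA replicate 2, with adjusted p of 0.104, 0.0803 and 0.0726 for scrambled replicates 1, 2 and 3 and of 0.155 and 0.135 for Foxl2 siRNA replicates 1 and 3. Acvr1, Rgmb and Acvr2b were not called, with Acvr1 at 38.1 to 54.4 CPM against 47.0 to 49.0 CPM. Of 12 tested Smads and inhibitors, 2 rose and 3 fell at 54 h, again beside 38.8% of all tested genes called. Nothing is read from this count. Smad7, an inhibitory Smad, rose at both times (0.57 ± 0.05 at 54 h, adjusted p = 9.22e-06), whereas Smad6, the inhibitory Smad more selective for BMP receptors, fell at both (-0.53 ± 0.09 at 54 h, 0.000543). Pdzrn3, which codes for a ubiquitin ligase, fell from 189 to 195 CPM to 75.4 to 131 CPM at 54 h (-0.87 ± 0.15, edgeR adjusted p = 0.000645). Smad9 fell by 0.69 ± 0.25 (adjusted p = 0.0447), a call lost without scrambled replicates 1, 2 or 3 (0.138, 0.0715 and 0.0806) or Foxl2 siRNA replicates 1 or 3 (0.112 and 0.144). Smad4 rose by 0.20 ± 0.04 (adjusted p = 0.0026), and Smad5, Skil and Ski were not called.

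The last list put Id genes and other target genes together with genes of E proteins. Of its 12 tested genes, 4 fell and 1 rose at 54 h, where 38.8% of all tested genes were called. Those that fell were Id3, Atoh8 and the E protein genes Tcf3 and Tcf4. Hes1, better known as a Notch target, rose from 22.6 to 25.6 CPM to 30.8 to 46.0 CPM (0.70 ± 0.14, edgeR adjusted p = 0.00185). Atoh8 fell from 9.26 to 12.0 CPM to 6.28 to 7.18 CPM (-0.62 ± 0.11, adjusted p = 0.000691). Tcf4 (-0.60 ± 0.13, 0.00367) and Tcf3 (-0.46 ± 0.09, 0.00225), which also fell, code for E proteins, the binding partners of the Id proteins, while Tcf12, another E protein, was not called at 142 to 163 CPM against 160 to 163 CPM. Id4 and Msx1 were at or under 2.63 CPM in every library and were not called. Against scrambled siRNA, Id3 was the 1 of 4 Id genes called with Foxl2 siRNA.

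Over the 15 libraries, the genes whose log2 CPM ran most like that of Grem1 were Pparg (Pearson r = 0.985), Ace (0.984), Tmem150b (0.982), Tenm4 (0.982) and Lzts1 (0.981), and the most opposite was Dusp10 (-0.982). Pparg was at 45.8 and 64.8 CPM on average with scrambled siRNA at 30 h and 54 h, and at 10.2 and 8.44 CPM with Foxl2 siRNA. Among the members, Bmpr1b was closest to Grem1 (r = 0.966), and Id2 (0.095) and Bmp4 (-0.532) were not alike. For Id1 the nearest were Cuedc2 (0.93), Fuom (0.916), Golt1b (0.915), Magoh (0.914) and Drd4 (0.908), and the most opposite Mapk6 (-0.921), while Id3 stood at 0.825. These coefficients describe libraries that share their groups, scaling and depth, and were not tested.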

How the data were processed

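Poly(A) RNA of 15 libraries was read as single 75-base reads, per the labels' protocols. The values used are the authors' deposited gene counts, whole numbers that were not normalized. Per the submitters' processing notes, bcl2fastq 2.15.0, TopHat2 and DESeq2 were used with build mm10. Which program counted the reads, with which annotation and strand option, is not given in the sources used here. In 1 scrambled library, 15 gene symbols turned into dates were restored from the gene order of the other libraries. The 92 spike-in rows were left out. Replicates differed by more than sampling noise (chi-square per degree of freedom at least 5.89).

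edgeR 4.0.16 (R 4.3.3) fitted 5 group means over 15 libraries with TMM scaling, 10 residual degrees of freedom, a biological coefficient of variation of 0.15 and Benjamini-Hochberg adjustment over 14907 genes kept by its expression filter; tests were two-sided. On simulated counts of 14907 genes in 15 libraries, the test of 3 against 3 libraries was checked for recovery of known changes. Every simulated gene had the same biological coefficient of variation, so the check does not cover genes that varied more between replicates. Alternatives were other scalings, no filter, a replicate block, only the groups compared, limma 3.58.1 voom with quality weights, DESeq2 1.42.0, and each library left out. The main fit paired no libraries, and the replicate number entered only the alternative with a replicate block, over all 15 libraries. Deviations of same-numbered scrambled libraries at 30 h and 54 h correlated at 0.63, 0.49 and 0.14. No label states a pairing. Gene positions and exon lengths came from GENCODE M21 (GRCm38), and promoters from RefSeq.

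The members, gene lists and tests were chosen with earlier results of these data known. Named were all members, and of each list up to 3 called genes of largest change and up to 3 uncalled genes of highest level with Foxl2 siRNA at 54 h, and up to 3 called genes with Esr2 siRNA or time; for Grem1 and Id1, the 5 genes of highest and the 1 of lowest correlation of log2 CPM (prior count 2). Bmp8b, Gdf6, Twsg1, Fstl1, Dand5, Smad4, Smad6 and Tcf3 fall outside this rule and were named after their values were seen. The lists' counts include 1 gene that this rule names and that is not reported here.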

Additional observations from a re-analysis of the deposited data

Results flagged for a closer look

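At 30 h, 2 members differed between the siRNAs by a direct test of Foxl2 siRNA against Esr2 siRNA. The same test called 20.4% of all tested genes, so nothing particular to the members is read from their count. The changes with both siRNAs are set against the same scrambled libraries. Grem1 differed by -2.32 on the log2 scale and Id2 by -0.88, with Id2 at 42.7 to 48.7 CPM after Foxl2 siRNA and at 60.6 to 96.5 CPM after Esr2 siRNA. Grem1 had been chosen on the Foxl2 siRNA libraries used here, and its call did not survive the loss of 5 of the 6 single libraries, as given above.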

How the results depend on the processing

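Over 54 pairs of member and comparison, 786 alternative values were computed, of which 685 kept direction and side of the threshold, 40 lost and 42 gained the call, and 19 changed sign. Of 14 called pairs, 6 kept their call under all alternatives: Bmpr1b at 30 h, and Grem1, Bmpr1b, Bmpr2 and Id3 at 54 h, with Foxl2 siRNA, and Id2 between the siRNAs; for Grem1, chosen on that change, this supports nothing. DESeq2 gave no adjusted p for Grem1. Changes of sign were limited to 7 uncalled pairs. Id2 with Foxl2 siRNA at 54 h went to 0.01 (RLE scaling, DESeq2, or only the groups compared), 0.02 (upper quartile), 0.08 (voom), 0.05 (without both libraries with the most Foxl2, an alternative chosen after seeing the data) and -0.13 to 0.06 (each library left out). With each library left out, Bmp4 ran from -0.10 to 0.54 with Esr2 siRNA and from -0.16 to 0.49 between siRNAs, Id1 from -0.11 to 0.35 between siRNAs (-0.11 also without both), and the differences between times from -1.71 to 0.60 for Bmp2, -0.45 to 0.03 for Id1 and -0.01 to 0.17 for Id2.

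Members and list genes called were, with each library left out, 1 to 5 and 7 to 17 with Foxl2 siRNA at 30 h, 5 to 8 and 22 to 35 at 54 h, 0 to 1 and 1 to 3 with Esr2 siRNA, 0 to 3 and 0 to 5 for the difference between times, and 1 to 4 and 10 to 18 between siRNAs. Only the groups compared gave 2 members with Foxl2 siRNA at 30 h, 3 members and 8 list genes with Esr2 siRNA, and 1 and 2 between scrambled times. Voom gave 26 list genes with Foxl2 siRNA at 30 h, 7 members and 18 list genes with Esr2 siRNA, 5 and 16 between scrambled times, 1 and 4 for the difference between times, and 6 and 29 between siRNAs; DESeq2 gave 1 list gene between scrambled times. Without both libraries with the most Foxl2 the counts were 7 and 23 with Foxl2 siRNA at 30 h, 3 and 5 for the difference between times, and 6 and 25 between siRNAs. Calls over all genes rose with them, from 1936 to 4577, from 1 to 836 and from 3042 to 5133. Voom moved the Foxl2 siRNA difference of Grem1 to -3.56 and -5.98 and that of Bmp2 at 54 h to -3.17. The cause was not tested. Over all genes, each library left out gave 898 to 3016 calls with Foxl2 siRNA at 30 h, 4424 to 6752 at 54 h, 238 to 1030 with Esr2 siRNA, 1 to 904 for the difference between times and 1767 to 3647 between siRNAs; scrambled times gave 1 call against 206 (only the groups), 2693 (voom) and 60 (DESeq2), the difference between times 1 against 1056 (voom) and 192 (DESeq2), Esr2 siRNA 631 against 1131, 4731 and 1097, Foxl2 siRNA at 30 h 1936 against 5252 (voom), and the siRNAs 3042 against 5446 (voom) and 1625 (only the groups). Upper-quartile scaling turned the 945 higher and 991 lower calls of Foxl2 siRNA at 30 h into 1204 and 799, and the 168 and 463 of Esr2 siRNA into 250 and 396.

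With the replicate number as a block, Bmpr2 at 30 h (adjusted p = 0.0505), Bmp4 at 54 h (0.053) and Grem1 between siRNAs (0.0525, leaving 1 member) lost their calls among members, as did Acvr2a (0.057) and Smad9 (0.0614) at 54 h; all-gene counts moved from 1 to 3 between scrambled times, from 1936 to 1904 with Foxl2 siRNA at 30 h, from 5787 to 5754 at 54 h and from 631 to 607 with Esr2 siRNA. Whether the number pairs libraries is not known for any groups. Same-numbered deviations correlated at 0.14 to 0.63 between the scrambled times and at -0.29 to 0.66 between the Foxl2 siRNA times. Between Foxl2 siRNA and scrambled libraries they correlated at 0.07 to 0.49 at 30 h and 0.02 to 0.40 at 54 h. Between Esr2 siRNA and scrambled libraries at 30 h the range was -0.47 to 0.32. Bmp4, at 204 to 582 counts a group, is the member whose depth limits it most.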
